A study of Mus musculus with 14 samples.

Results

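The interferon receptors and the JAK signalling genes directly below them were described as 10 genes: the receptor subunits Ifnar1, Ifnar2, Ifngr1 and Ifngr2, the kinases Jak1, Jak2 and Tyk2, the transcription factors Irf1 and Irf3, and the inhibitor Socs1. They were chosen by name, with earlier results of these data known. Each is represented by its brightest probe set among those annotated with that gene alone. All 10 were measured on both array designs, out of 22180 named genes on the first and 19938 on the second, and all 10 passed the filter on dim genes, which left 16635 genes to be tested.

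The samples were tumours of B16-F10, a melanoma line grown in C57BL/6 mice. In the study, mice with a tumour on each flank received 20 Gy to the right flank on day 8 and an antibody blocking CTLA4 on days 5, 8 and 11. Sublines recovered from unirradiated tumours that withstood this therapy or relapsed after it were implanted again. The first design held 7 tumours of the resistant subline Res 499, 1 tumour of the resistant subline Res 177 and 4 tumours of the sensitive control, and the second design held 1 Res 177 and 1 control tumour. All groups share the B16-F10 parent line; each resistant group is 1 subline, so replicates measure the spread between tumours and not between sublines. The labels do not give the age or sex of the mice, nor whether the measured tumours had themselves been treated or grew in separate mice; the p-values therefore rest on a spread that may be partly technical. Levels are given on the log2 scale, and a change is a difference of log2 levels.

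Type I interferons bind a receptor of Ifnar1 and Ifnar2, which is served by the kinases Tyk2 and Jak1, and interferon gamma binds a receptor of Ifngr1 and Ifngr2, which is served by Jak1 and Jak2. The activated kinases phosphorylate STAT proteins, which enter the nucleus and switch on interferon target genes. STAT dimers bind GAS elements, and the ISGF3 complex, which holds Stat2 and Irf9, binds ISRE elements. Irf1 is itself a target of interferon gamma signalling and a transcription factor for further targets. Irf3 is activated by phosphorylation downstream of nucleic acid sensors and drives transcription of interferon beta. Socs1, which interferon induces, binds and inhibits the JAK kinases and so closes a feedback loop.

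Of the receptor genes, 3 lie side by side on mouse chromosome 16, where Ifnar2, Il10rb, Ifnar1 and Ifngr2 share 191.0 kb (GRCm38.p6), while Ifngr1 is on chromosome 10. Jak1, Jak2 and Tyk2 are on chromosomes 4, 19 and 9, Irf1 and Irf3 on chromosomes 11 and 7, and Socs1 on chromosome 16. Promoter sequence from RefSeq (GRCm38.p6) was present for all 10 genes and is shown for 5 of them, because they are the promoters with a GAS-like or ISRE-like word and, for contrast, that of Irf3, which has neither. Each runs from 250 bases before the annotated start to 10 bases after it, 5′ to 3′ on the gene's strand. Capitals mark matches to TTCNNNGAA, the core of a GAS element, or to the core of an ISRE, which is GAAA, any 2 bases and GAAA, searched on both strands in windows that reach 50 bases past the start.
Irf1, chr11:53769764-53770023, plus strand: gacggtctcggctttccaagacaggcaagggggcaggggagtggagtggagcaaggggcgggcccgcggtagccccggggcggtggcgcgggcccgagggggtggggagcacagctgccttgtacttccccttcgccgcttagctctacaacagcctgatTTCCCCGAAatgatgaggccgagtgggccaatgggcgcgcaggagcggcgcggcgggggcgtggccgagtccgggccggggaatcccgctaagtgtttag
Socs1, chr16:10785527-10785786, minus strand: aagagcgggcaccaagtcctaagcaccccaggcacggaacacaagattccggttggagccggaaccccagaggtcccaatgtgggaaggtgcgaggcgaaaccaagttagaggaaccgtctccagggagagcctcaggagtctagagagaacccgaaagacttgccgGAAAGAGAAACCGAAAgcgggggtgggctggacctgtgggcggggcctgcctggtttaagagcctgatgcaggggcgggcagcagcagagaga
Ifnar1, chr16:91484965-91485224, plus strand: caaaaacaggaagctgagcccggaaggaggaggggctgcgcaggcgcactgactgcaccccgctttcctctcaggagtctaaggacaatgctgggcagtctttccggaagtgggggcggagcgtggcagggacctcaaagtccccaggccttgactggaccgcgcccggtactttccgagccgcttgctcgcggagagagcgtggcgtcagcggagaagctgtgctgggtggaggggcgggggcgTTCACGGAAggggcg
Ifnar2, chr16:91372533-91372792, plus strand: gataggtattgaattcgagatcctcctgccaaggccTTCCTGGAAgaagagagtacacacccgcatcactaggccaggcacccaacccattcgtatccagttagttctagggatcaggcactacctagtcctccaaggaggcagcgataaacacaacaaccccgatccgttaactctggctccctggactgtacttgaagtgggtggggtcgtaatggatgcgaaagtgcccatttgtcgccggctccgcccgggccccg
Irf3, chr7:44997398-44997657, plus strand: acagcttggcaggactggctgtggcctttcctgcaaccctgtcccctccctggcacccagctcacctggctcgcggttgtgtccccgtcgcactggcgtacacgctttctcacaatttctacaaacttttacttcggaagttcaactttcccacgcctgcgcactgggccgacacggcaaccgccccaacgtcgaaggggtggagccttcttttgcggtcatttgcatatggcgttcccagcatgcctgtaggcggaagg
The GAS-like word TTCCCCGAA starts 90 bases before the start of Irf1, in 1 of its 2 annotated promoter windows. The promoter of Socs1 holds 2 overlapping ISRE-like words, GAAAGAGAAA at 83 and GAAACCGAAA at 77 bases before its start, and those of Ifnar1 and Ifnar2 each hold 1 GAS-like word. TTCNNNGAA occurs in 8.30% and the ISRE core in 3.44% of 32851 promoter windows of the same length, so a match is a description of the sequence and not a binding site. The windows of Ifngr1, Ifngr2, Jak1, Jak2, Tyk2 and Irf3 held no match to either word. The start used for Ifnar1, at 91485215, lies inside the gene as annotated, which begins at 91485032, so its GAS-like word does too. The starts used for Jak1 and Tyk2 also lie inside those genes.

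Across the 12 arrays of the first design, medians lay between 5.70 and 5.80 and correlations between arrays ran from 0.977 to 0.993. The mean of the 10 melanocyte markers was 12.33 to 12.78 in Res 499, 12.52 in the Res 177 tumour and 12.41 to 12.50 in control tumours. The mean of 5 leukocyte genes (Ptprc, Cd53, Laptm5, Coro1a and Lcp2) was 6.12 to 8.20 in Res 499, 7.49 in Res 177 and 6.34 to 6.78 in control tumours, and 5 of 7 Res 499 tumours lay above every control. The mean of 15 macrophage and monocyte markers, all of which were measured, was 6.79 to 9.16 in Res 499, 8.22 in Res 177 and 6.95 to 7.56 in control tumours. Keratinocyte markers averaged 5.17 to 5.40 in Res 499, 8.14 in the Res 177 tumour and 5.13 to 5.38 in control tumours. In bulk tumours, fewer cells of a type and less RNA per cell cannot be told apart.

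Irf1 spread widely between Res 499 tumours, Irf3 lay slightly higher in most of them, and the receptor and kinase genes differed from control by at most 0.15. None of the 10 genes passed the test in Res 499 against control (limma over 16635 genes, smallest adjusted p = 0.185, for Irf3), in a comparison that called 0.355% of all genes, 0.144% higher and 0.210% lower. At an unadjusted p under 0.05 the count was 1 of 10, again Irf3, against 13.0% of all genes. Of the 10 changes 9 were positive, with a median of 0.12, against 51.7% positive and a median of 0.01 over all genes tested. With leukocyte content as a covariate the median of the 10 was -0.000443 and 5 were positive, with Ifnar1 at 0.07, Ifngr1 at 0.0074 and Jak2 at -0.18. Group ranges overlapped for all 10 genes, whereas 2.39% of all genes had ranges that did not overlap, 1.23% higher and 1.15% lower.

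**Figure D1:**
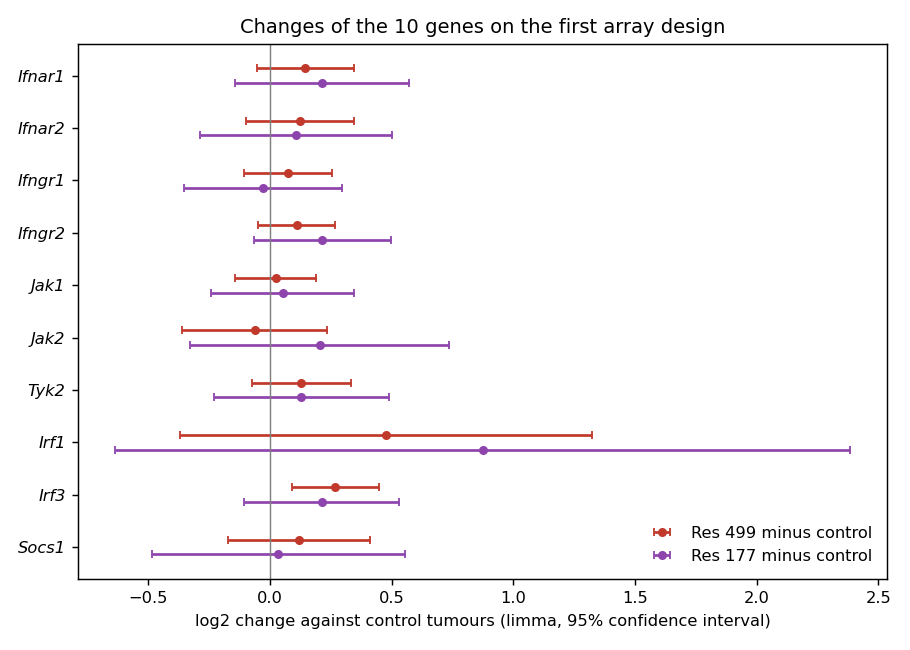
Log2 change of each gene against the 4 control tumours of the first design, for 7 Res 499 tumours and for the single Res 177 tumour, with the 95% confidence interval from limma on the horizontal axis. The Res 499 interval of Irf3, 0.09 to 0.45, is the one that leaves out 0, and the interval of Irf1 is the widest.

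Among the type I receptor subunits, Ifnar1 had 10.58, 10.68 and 11.05 (lowest, median and highest) in Res 499 tumours, 10.80 in the Res 177 tumour and 10.59, 10.59, 10.72 and 10.46 in control tumours. The highest 3 Res 499 tumours exceeded the control range and the others lay inside it. The change in Res 499 was 0.15 (SE 0.09, 95% interval -0.05 to 0.35, limma adjusted p = 0.554). Ifnar2, whose long form binds the ligand with high affinity and carries the docking sites for STAT proteins, had 10.27, 10.47 and 10.83 in Res 499 tumours, 10.48 in Res 177 and 10.40, 10.46, 10.27 and 10.35 in control tumours. It lay above every control in 4 of 7 Res 499 tumours, highest in replicates 2 and 3, and marginally below them in replicate 6. Its change was 0.12 (SE 0.10, 95% interval -0.10 to 0.34, limma adjusted p = 0.670), and -0.05 with leukocyte content as a covariate.

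Among the interferon gamma receptor subunits, Ifngr1, the ligand-binding chain, had 10.24, 10.44 and 10.63 in Res 499 tumours, 10.34 in Res 177 and 10.49, 10.23, 10.46 and 10.32 in control tumours. Ifngr2, the chain that brings Jak2 to the receptor, had 10.74, 10.94 and 11.07 in Res 499 tumours, 11.03 in Res 177 and 10.79, 10.75, 10.81 and 10.91 in control tumours. Ifngr2 lay above every control in 5 of 7 Res 499 tumours and in the Res 177 tumour, and Ifngr1 in 2 of 7. Their changes in Res 499 were 0.07 (95% interval -0.11 to 0.25, limma adjusted p = 0.778) for Ifngr1 and 0.11 (95% interval -0.05 to 0.27, limma adjusted p = 0.572) for Ifngr2. The upper bounds of the 4 receptor genes thus lay between 0.25 and 0.35, and all 4 intervals included 0. Il10rb, the shared chain of the receptors for interleukin 10 and interferon lambda, which lies between Ifnar2 and Ifnar1 in the chromosome 16 cluster, was at 10.95, 11.03 and 11.42 in Res 499 tumours, 11.22 in Res 177 and 10.63 to 10.93 in control tumours. Every one of the 7 Res 499 tumours exceeded the controls for Il10rb; its change of 0.36 (SE 0.10) missed the threshold (limma adjusted p = 0.153).

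Of the kinases, Jak1, which serves both receptors, had 10.34, 10.57 and 10.75 in Res 499 tumours, 10.59 in Res 177 and 10.55, 10.56, 10.52 and 10.53 in control tumours. The control tumours thus covered a range of 0.05, in which no Res 499 tumour lay, with 4 above and 3 below it. The Res 499 change was 0.02 (SE 0.08, 95% interval -0.14 to 0.19, limma adjusted p = 0.936), and its sign turned with each array centred on its median and with the leukocyte covariate. Jak2, the second kinase of the interferon gamma receptor, had 8.84, 9.07 and 9.42 in Res 499 tumours, 9.38 in Res 177 and 9.49, 9.34, 9.01 and 8.86 in control tumours. Jak2 was the gene of the 10 with a negative change, -0.06 (SE 0.14, 95% interval -0.36 to 0.24, limma adjusted p = 0.891), and the groups overlapped over most of their ranges; without control replicate 2 the change was 0.04. Tyk2, the kinase of the type I receptor, had 8.65, 8.79 and 8.97 in Res 499 tumours, 8.81 in Res 177 and 8.38, 8.79, 8.79 and 8.79 in control tumours. Its change of 0.13 (SE 0.09, 95% interval -0.07 to 0.33, limma adjusted p = 0.614) rested on control replicate 2, and was 0.03 without it. The deposited Tyk2 value was identical to 8 decimals in 5 of the 12 arrays, which was so for 0.763% of genes tested.

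Irf1 separated the Res 499 tumours from each other more than from the controls. It had 9.30 in replicate 3, 8.94 in replicate 2, 8.74 in replicate 1, 8.31 in replicate 4, 8.29 in replicate 5, 7.18 in replicate 7 and 7.05 in replicate 6 of Res 499, 8.66 in the Res 177 tumour, and 7.54, 7.56, 7.73 and 8.30 in control tumours. Res 499 tumours thus lay both above the controls, 4 of 7, and below them, 2 of 7, and covered 2.24 log2 units against 0.75 in control tumours. The mean was 8.26 ± 0.86 (SD, n = 7) in Res 499 and 7.78 ± 0.35 (SD, n = 4) in control tumours, a 1.39-fold difference with a log2 change of 0.48 (SE 0.39, 95% interval -0.37 to 1.32, limma adjusted p = 0.663). Its SD in Res 499 was at the 99.1 percentile of all genes tested, and its SD in control tumours at the 95.5 percentile. Without single tumours the change ran from 0.30 to 0.68, and with leukocyte content as a covariate it was -0.32 (SE 0.27, adjusted p = 0.700).

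**Figure D2:**
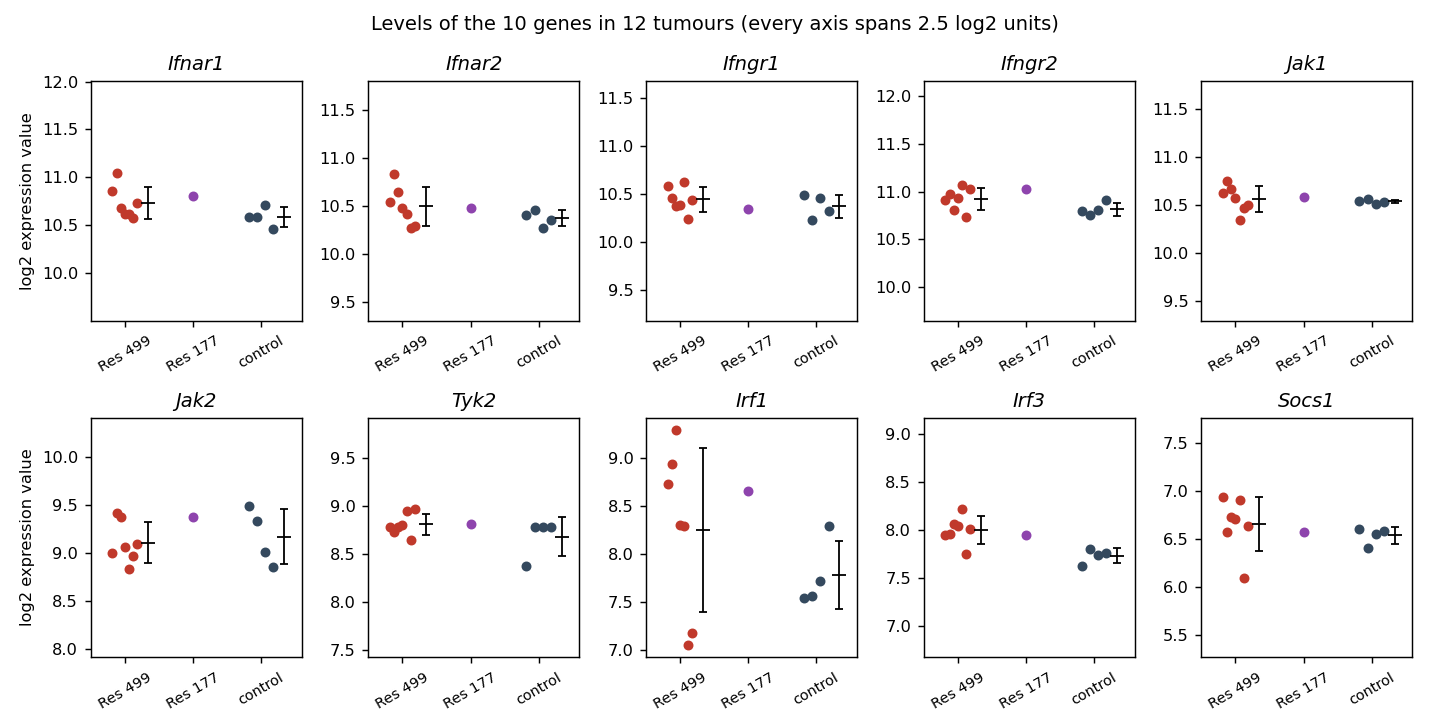
Log2 expression value of each gene in the 12 tumours of the first design (points: 7 Res 499, 1 Res 177, 4 control), with the mean and SD of Res 499 and of control tumours beside the points. Every vertical axis covers the same number of log2 units; Irf1 spans 7.05 to 9.30 in Res 499, while each kinase and receptor covers at most 0.58 log2 units there.

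Within Res 499, Irf1 moved from tumour to tumour with the interferon target genes. The mean of 25 tested target genes was 8.90 and 8.93 in replicates 3 and 2, where Irf1 was highest, and 7.24 and 7.13 in replicates 6 and 7, where Irf1 was lowest. The Pearson r over the 7 tumours was 0.98 (exact permutation p = 0.00139, adjusted p = 0.0099 over the 10 relations to this list), Spearman's rho was 0.93 (exact permutation p = 0.00675, adjusted p = 0.0338), and r was 0.92 without replicates 6 and 7, the tumours farthest from the median. Over all 7 tumours Ifnar2 had the next highest r, at 0.94 (exact permutation p = 0.00198, adjusted p = 0.0099), rho = 0.96 (exact permutation p = 0.00278, adjusted p = 0.0278), and r = 0.92 without the same tumours. The other 8 genes gave r from -0.28 to 0.72, none of which passed after adjustment (exact permutation, smallest adjusted p = 0.240). The order rested on replicates 6 and 7: without them r was 0.96 for Jak2, 0.91 for Jak1 and -0.85 for Tyk2, and from -0.66 to 0.65 for the remaining 5 genes. The relation to this list was chosen after seeing the data, and all points share their arrays.

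The relation of Irf1 to leukocyte content was positive too. Against the mean of the 5 leukocyte genes the Pearson r was 0.89 (exact permutation p = 0.00615, adjusted p = 0.0615 over 10 relations) and Spearman's rho was 0.93 (exact permutation p = 0.00675, adjusted p = 0.0615). Neither passed after adjustment, and r was 0.76 without replicates 6 and 7. Against macrophage markers, a measure added after seeing the data, r was 0.90 (exact permutation p = 0.00397, adjusted p = 0.0397), rho was 0.86 (exact permutation p = 0.0238, adjusted p = 0.170), and r was 0.69 without the same tumours. The interferon target and leukocyte means themselves had r = 0.88 over the same tumours (exact permutation p = 0.0105), rho = 0.93 (exact permutation p = 0.00675) and r = 0.65 without replicates 6 and 7. Replicate 4 had Irf1 at 8.31 and interferon targets at 8.23 with a leukocyte mean of 6.81, next to a control maximum of 6.78, and replicate 5 had Irf1 at 8.29 and targets at 7.98 with a leukocyte mean of 7.77. The mean of 11 tested T and NK cell markers was 5.74, 6.23, 6.10, 5.56, 5.69, 5.41 and 5.32 in Res 499 replicates 1 to 7, 5.81 in Res 177 and 5.32 to 5.65 in control tumours. It was highest in replicates 2 and 3 and lowest in replicates 6 and 7, as Irf1 was. The mean of 7 fibroblast markers was 8.32, 8.51, 8.52, 6.61, 8.12, 7.01 and 6.60 in the same Res 499 tumours, 7.99 in Res 177 and 6.90 to 7.78 in control tumours, and was low in replicates 4, 6 and 7. The part of T and NK cells and of fibroblasts in the Irf1 levels was not tested, and that of leukocytes was not tested beyond the covariate above.

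**Figure D3:**
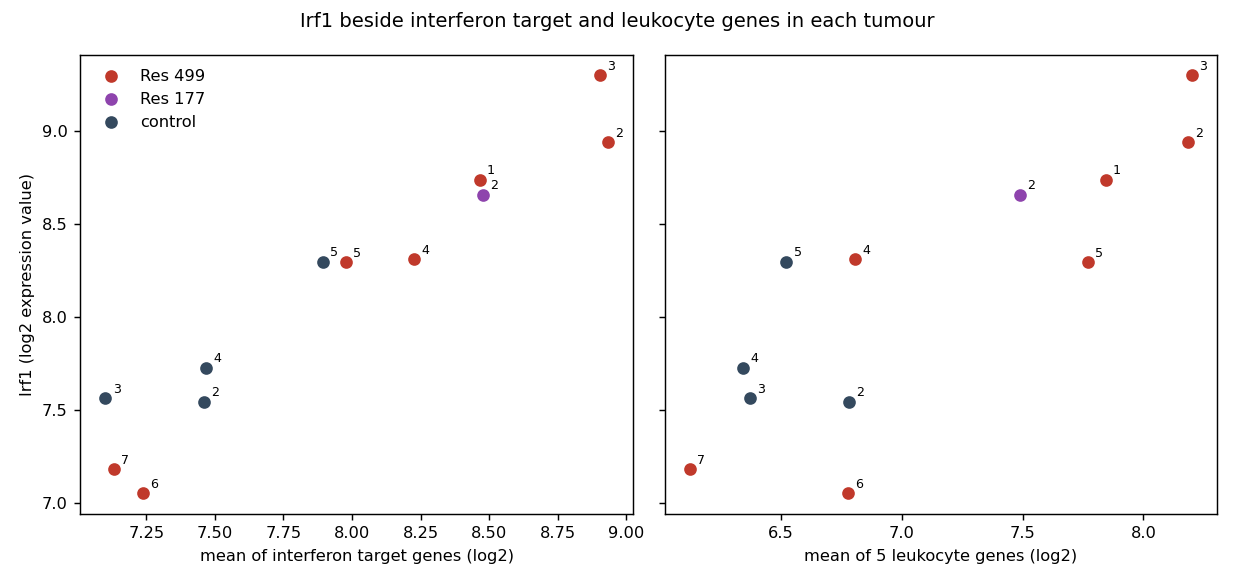
Irf1 level (vertical axis, log2) against the mean of 25 interferon target genes (left) and of 5 leukocyte genes (right), 1 point for each of 12 tumours with its replicate number. Res 499 replicates 6 and 7 lie at the lower left with Irf1 at 7.05 and 7.18, and replicates 2 and 3 at the upper right with 8.94 and 9.30.

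Irf3 had 7.75, 8.01 and 8.22 in Res 499 tumours, 7.94 in the Res 177 tumour and 7.62, 7.80, 7.73 and 7.76 in control tumours. In 6 of 7 Res 499 tumours and in the Res 177 tumour it lay above every control, and replicate 6 lay inside the control range. The mean was 8.00 ± 0.14 (SD, n = 7) in Res 499 and 7.73 ± 0.08 (SD, n = 4) in control tumours, a 1.20-fold difference with a log2 change of 0.27 (SE 0.08, 95% interval 0.09 to 0.45). It did not pass over all genes (limma adjusted p = 0.185), of which 13.0% had an unadjusted limma p under 0.05. A two-sided exact permutation test, run for each of the 10 genes, gave p = 0.0182 for Irf3, not adjusted over them. For the other genes the exact permutation p ran from 0.115 (Ifngr2) to 0.752 (Jak1). The smallest possible p of this exact permutation test is 0.00606. The change was positive in all 21 alternative fits, from 0.23 to 0.31, with adjusted p from 0.0861 to 0.426, and it was 0.23 (SE 0.10) with leukocyte content as a covariate. Its relation to leukocyte content within Res 499 was r = 0.28 (exact permutation p = 0.544, adjusted p = 0.604), with rho = 0.25 (exact permutation p = 0.595, adjusted p = 0.713) and r = -0.13 without replicates 6 and 7.

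Socs1 had 6.09, 6.71 and 6.94 in Res 499 tumours, 6.57 in the Res 177 tumour and 6.60, 6.40, 6.56 and 6.59 in control tumours. It lay above every control in 5 of 7 Res 499 tumours and below them in replicate 6, which was the lowest Res 499 tumour also for Ifnar1, Ifnar2, Ifngr1, Ifngr2, Tyk2, Irf1 and Irf3. The change was 0.12 (SE 0.13, 95% interval -0.17 to 0.41, limma adjusted p = 0.776), and -0.01 with leukocyte content as a covariate. Unlike Irf1, Socs1 was highest in replicates 1 and 5 and at 6.57, inside the control range, in replicate 2. Its relation to the interferon target genes within Res 499 was r = 0.46 (exact permutation p = 0.312, adjusted p = 0.520), with rho = 0.21 (exact permutation p = 0.662, adjusted p = 0.870), and r was -0.66 without replicates 6 and 7.

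The genes whose pattern over the 12 tumours was most like that of Irf1 were Irgm1, an interferon-inducible GTPase (r = 0.98, rho = 0.97, and 0.97 without the 2 tumours farthest from the median), and Psmb10, an immunoproteasome subunit (r = 0.96, rho = 0.93, and 0.97). For Ifnar2 they were Il27ra, a cytokine receptor (r = 0.94, rho = 0.92, and 0.80), and 9930111J21Rik2 (r = 0.93, rho = 0.90, and 0.83). For Irf3 they were Mtg2 (r = 0.95, rho = 0.90, and 0.88) and Znrd1, an RNA polymerase I subunit (r = 0.93, rho = 0.90, and 0.90). Ifnar1 was followed by Ubfd1 and Kazn, Ifngr1 by Ccdc88b and Galnt17, Ifngr2 by B3gat3 and Cmtm7, Jak1 by Asah2 and Nsd3, Jak2 by Rp2 and Ppil4, Tyk2 by Anxa13 and Hspbp1, and Socs1 by Adamtsl1 and Galnt18, with r from 0.87 to 0.94. For these 14 genes rho ran from 0.50 to 0.96 and r without 2 tumours from 0.57 to 0.90; the lowest were Galnt18 (rho = 0.50, and 0.60 without 2 tumours) and Kazn (0.57 without 2 tumours). These are the highest values out of all genes tested, over tumours that share groups and arrays, and are given as a description.

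In Res 177, Irf1 and Irf3 lay higher than control in both tumours, and so did Ifnar1, Ifnar2, Ifngr2 and Socs1. Each tumour was set against the control of its own array design. On the first design none of the 10 genes passed the test (limma, all adjusted p = 1, 0 of 10 at an unadjusted p under 0.05 against 4.08% of all genes), which called 0.210% of all genes, all higher. The Res 177 tumour lay above every control for 7 of the 10 genes and below every control for 0, against 22.5% above and 17.5% below over all genes. Some margins were narrow: 10.48 against a highest control of 10.46 for Ifnar2, 10.59 against 10.56 for Jak1 and 8.81 against 8.79 for Tyk2. With arrays centred on their median the Ifnar2 difference was 0.05 in place of 0.11, and that of Jak1 -0.008 in place of 0.05. The count after centring was not tested. The SE of this contrast comes from the other groups, since the arm holds 1 tumour. Irf1 was at 8.66 in the Res 177 tumour against 7.54 to 8.30 in control tumours, a difference of 0.87 (SE 0.70, 95% interval -0.64 to 2.39), or -0.01 once leukocyte content entered the fit. On the second design Irf1 was at 10.08 in the Res 177 and 8.73 in the control tumour, a 2.54-fold difference, and it was the 1 gene of the 10 past 1.5-fold, where 3.28% of genes were past it upward and 1.54% downward. A second, dimmer Irf1 probe set of that design had 6.54 in both tumours, and the mean of the probe sets differed by 0.67. Irf3 was at 9.65 in the Res 177 and 9.35 in the control tumour of the second design, a difference of 0.31, beside 0.21 on the first.

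The receptor differences were 0.21 and 0.09 for Ifnar1, 0.11 and 0.13 for Ifnar2, -0.03 and -0.16 for Ifngr1, and 0.21 and 0.07 for Ifngr2, on the first and the second design. Those of the kinases were 0.05 and -0.01 for Jak1, 0.20 and -0.31 for Jak2, and 0.13 and -0.13 for Tyk2, with opposite signs in every case. For Jak1 this depended on the centring: with arrays centred on their median both differences were negative, -0.008 and -0.0838. Socs1 differed by 0.03 and 0.29. In all, 7 of 10 genes had the same sign on both designs, 70.0% against 61.1% of the 15034 genes with a value on both, and the second design has no replicate check.

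**Figure D4:**
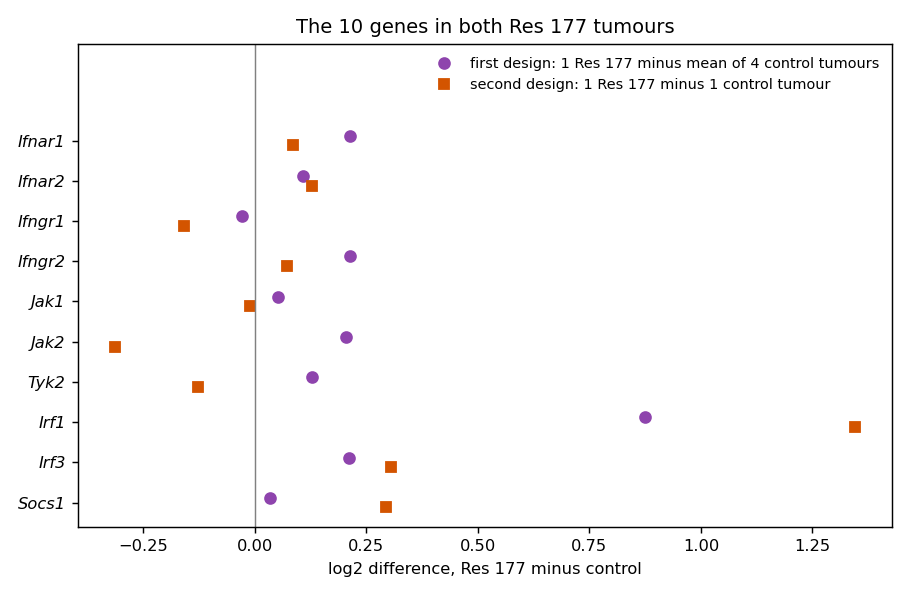
Log2 difference between Res 177 and control for each gene, 1 tumour against the mean of 4 controls on the first design (circles) and 1 against 1 on the second (squares). Irf1 lies farthest right on both, at 0.87 and 1.35, and the 3 kinases change side of 0 between the designs.

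With Res 499 and Res 177 combined as 8 resistant against 4 sensitive tumours, none of the 10 genes passed the test (limma, 0.613% of all genes called, adjusted p from 0.154 to 0.951). Irf3 differed by 0.26 (SE 0.08, adjusted p = 0.154) and Irf1 by 0.53 (SE 0.37, adjusted p = 0.595). The median of the 10 was 0.12, against 0.01 over all genes tested. These tumours and controls are those of the contrasts above, so the values are no separate evidence.

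No gene passed the test among the factors that carry the signal to the nucleus. Of 7 tested STAT and ISGF3 genes, 6 had positive changes (median 0.24) and 0 were called by limma in either direction. Irf9, the DNA-binding subunit of the complex at ISRE elements, had 8.11, 8.78 and 9.18 in Res 499 tumours against 7.70 to 8.36 in control tumours, a change of 0.68 (SE 0.21, adjusted p = 0.185). Stat2, its partner, differed by 0.61 (SE 0.22, adjusted p = 0.256) and Stat4, the STAT of interleukin 12 signalling, by 0.60 (SE 0.24, adjusted p = 0.323). In Res 499, 5 of 7 tumours lay above every control for each of these 3 genes. With leukocyte content as a covariate Irf9, Stat2 and Stat4 were at 0.39, 0.22 and 0.06.

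Among 7 other interferon regulatory factor genes and their binding partners, 3 had positive changes. By limma 1 was called lower and 0 higher, where 0.210% and 0.144% of all genes were called. Irf2bpl, a relative of the corepressors that bind Irf2, had 8.35, 8.56 and 8.81 in Res 499 tumours, 8.55 in Res 177 and 8.98 to 9.34 in control tumours. All 7 Res 499 tumours lay below every control, with a change of -0.51 (SE 0.10, adjusted p = 0.0482). This call held in 8 of 21 alternative fits, whose adjusted p ran from 0.0238 to 0.160, and the direction in all 21. Irf4, a factor of lymphocytes and of the melanocyte lineage, had 5.50, 6.68 and 6.96 in Res 499 tumours, 5.63 in Res 177 and 5.03 to 5.29 in control tumours, above every control in 7 of 7. Its change of 1.23 (SE 0.26, adjusted p = 0.0696) missed the threshold, and passed it in 3 of 20 alternative fits. Irf7, the interferon-induced amplifier of type I interferon production, differed by 0.83 (SE 0.25, adjusted p = 0.182) and Irf8, a factor of myeloid cells, by 0.77 (SE 0.45, adjusted p = 0.510). With leukocyte content as a covariate Irf7 was at 0.35, Irf8 at -0.22, Irf4 at 1.51 and Irf2bpl at -0.44 (adjusted p = 0.151). The median of these 7 genes was -0.08.

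The negative regulators of JAK-STAT signalling were split evenly, with 9 of 18 positive, a median of -0.0041 and 0 called. Usp18, an interferon-induced protease that blocks JAK binding to Ifnar2, had 7.34, 8.99 and 9.53 in Res 499 tumours, 9.14 in Res 177 and 7.11 to 7.75 in control tumours. It lay above every control in 6 of 7 Res 499 tumours, and its change was 1.25 (SE 0.38, adjusted p = 0.177), or 0.67 with leukocyte content as a covariate. Ptprc, the leukocyte phosphatase CD45, differed by 1.16 (SE 0.52, adjusted p = 0.369), Socs3, the inhibitor of interleukin 6 signalling, by 0.21 (SE 0.11, adjusted p = 0.426), and Sh2b3, an adaptor that restrains Jak2, by -0.34 (SE 0.09, adjusted p = 0.138). Sh2b3 lay below every control in 6 of 7 tumours. With the covariate Ptprc, itself 1 of its 5 genes, was at -0.09, Socs3 at 0.12 and Sh2b3 at -0.41, and Socs3 was at -2.22e-05 with the mean of its probe sets.

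**Figure D5:**
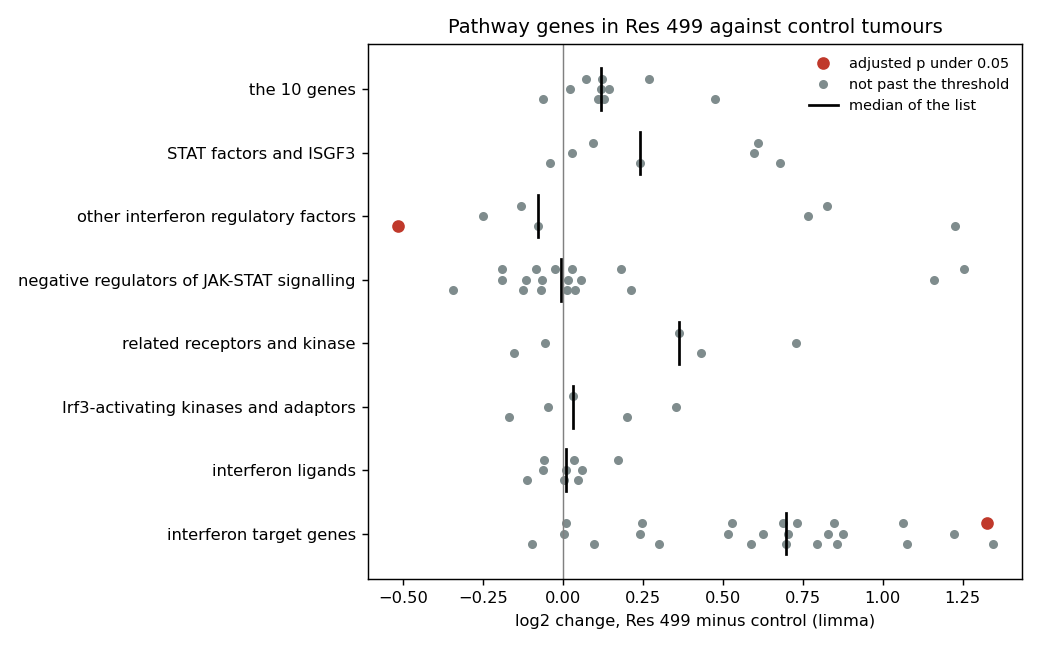
Log2 change in Res 499 against control (limma) of the 10 genes and of the tested genes of 7 pathway lists, with a bar at each median and larger points for genes past the adjusted p threshold. Medians are 0.12 for the 10 genes, 0.24 for STAT factors and 0.70 for interferon target genes, and the called genes are Irf2bpl (left) and Cxcl10 (right).

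Of the interferon genes themselves none passed the test, but of 18 measured ligand genes only 9 passed the filter on dim genes and were tested. Among these, 6 were on the positive side, the median was 0.01 and 0 were called. Ifng was at 5.55 ± 0.10 (SD, n = 7) in Res 499 and 5.49 ± 0.07 (SD, n = 4) in control tumours, a change of 0.06 (SE 0.07, adjusted p = 0.774). Both means lay below the array medians of 5.70 to 5.80, and at such low levels a flat value says little about the ligand. Ifnb1 lay under the filter on dim genes, at 4.30 ± 0.11 (SD, n = 7) in Res 499 and 4.40 ± 0.14 (SD, n = 4) in control tumours, and was not tested. The largest ligand changes were 0.17 for Ifna7, -0.11 for Ifna4 and -0.06 for Ifne (adjusted p from 0.525 to 0.824); the Ifna genes are near-identical copies, so their probe sets can share signal. With the covariate Ifng was at -0.0078, Ifna7 at 0.08, Ifna4 at -0.19 and Ifne at -0.0072. Of the kinases and adaptors that activate Irf3, 3 of 5 had positive changes (median 0.03) and 0 were called. Ikbke differed by 0.35 (SE 0.10, adjusted p = 0.152), Tbk1 by 0.20 (SE 0.07, adjusted p = 0.263) and the adaptor Ticam1 by -0.17 (SE 0.09, adjusted p = 0.480).

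Of 5 related receptor genes 3 had positive changes (median 0.36) and 0 were called. Besides Il10rb these were Ifnlr1, the interferon lambda receptor chain, at 0.43 (SE 0.13, adjusted p = 0.175), and Il10ra, an interleukin 10 receptor chain of leukocytes, at 0.73 (SE 0.35, adjusted p = 0.400). With the covariate Il10rb was at 0.41, Ifnlr1 at 0.58 and Il10ra at -0.09. Ifnlr1 passed the threshold in 1 of 20 alternative fits. Of 25 tested interferon target genes 24 were on the positive side (median 0.70). By limma 1 was called higher, where 0.144% of all genes were, and 0 lower. It was the chemokine gene Cxcl10, at 1.33 (SE 0.25, adjusted p = 0.0482). Cxcl10 had 8.93, 9.76 and 10.05 in Res 499 tumours, 8.78 in Res 177 and 7.61 to 8.90 in control tumours, above every control in 7 of 7, and its call held in 11 of 21 alternative fits. Igtp, an interferon-inducible GTPase, differed by 1.34 (SE 0.84, adjusted p = 0.549), Psmb9, an immunoproteasome subunit, by 1.22 (SE 0.50, adjusted p = 0.323) and Cd274, which encodes PD-L1, by 0.70 (SE 0.19, adjusted p = 0.138). Cd274 passed the threshold in 1 of 21 alternative fits. With leukocyte content as a covariate Cxcl10 was at 1.14 (adjusted p = 0.135), Igtp at -0.34, Psmb9 at 0.28 and Cd274 at 0.40. The list mean was 7.13 to 8.93 in Res 499, 8.48 in Res 177 and 7.10 to 7.89 in control tumours, with 5 of 7 Res 499 tumours above every control, the same number as for the leukocyte genes. In Res 177 the target genes had a median of 0.92 on the first design (25 of 25 positive) and 0.86 on the second (26 of 26), beside macrophage medians of 1.01 and 0.99.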

How the data were processed

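Total RNA of 14 tumours was hybridised to Affymetrix whole-transcript arrays, and the deposited values are log2 expression values that the authors computed; the submitters' processing notes name RMA and oligo. Their versions, the genome build and the authors' probe annotation were not given in the sources used here; the values' range shows the log2 scale. The 2 designs were normalized separately and never pooled. Arrays carry no read depth, so the number of tumours limits the precision.

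Groups came from the subline label, and replicate numbers were given in deposition order, so they only name a tumour. Of the 41345 and 35556 probe sets of the designs, 23521 and 21789 had 1 gene symbol in the platform annotation, 1814 and 1621 several, and 16010 and 12146 none. Symbols were checked by Entrez number against RefSeq (0 changed), and a gene's probe set with the highest mean was kept. The lowest 25% of genes by mean were left out. Tests used limma 3.58.1 (lmFit, eBayes; R 4.3.3), with 1 fit of the 3 groups, and a second fit of 2 response groups, with Benjamini-Hochberg adjustment over 16635 genes at 0.05. On simulated data with the spread of these arrays, changes of 0.5 were called in 54.3% of 46 cases for Res 499 against control. Changes of 1 were called in 95.7% of 47 cases (16635 genes fitted), and 5 unchanged genes were called. The simulation drew independent noise with 1 spread per gene for all groups. It therefore does not give the rate for genes whose spread differs between groups or that vary together. Of the named pathway genes with measured changes above 1, Cxcl10 (1.33) was called. Igtp (1.34), Usp18 (1.25), Irf4 (1.23), Psmb9 (1.22) and Ptprc (1.16) were not. The rate for genes that spread as widely as Irf1 (SE 0.39) was not tested. Relations within Res 499 used exact permutations of 7 tumours, for which the smallest p is 3.97e-04 (SciPy 1.17.1); 10 were computed for each of 3 measures. The members and lists were chosen with earlier results of these data known. Named were all 10 genes, and of 7 pathway lists the genes past the threshold, the 3 largest changes and 9 fixed genes, 1 of which is not reported here. For likeness, the 2 genes with the highest Pearson r were named. Alternatives covered leukocyte content, leaving out each array, the threshold, array weights, the prior, normalization, the probe set choice and the dim filter.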

Additional observations from a re-analysis of the deposited data

Results flagged for a closer look

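Tyk2 in control replicate 2, at 8.38, stood apart from the other 3 control tumours, which had the identical value of 8.79. Of 20 groups of values examined this way (10 genes in 7 Res 499 and in 4 control tumours), 1 showed such a gap, and chance flags about 1 in 20. That rate does not hold for tied values such as these. The Res 499 range was 8.65 to 8.97. The cause was not tested.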

How the results depend on the processing

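None of the 10 genes passed the threshold in any of the 3 contrasts under any alternative fit. Irf3, Ifnar1, Ifngr2 and Tyk2 kept their direction in all 21 alternative fits of Res 499, 19 of Res 177 and 20 of the pooled contrast. Without adjustment Irf3 in Res 499 was under 0.05 by exact permutation (p = 0.0182), by limma (p = 0.00636) and by limma with the leukocyte covariate (p = 0.0415). These tests share the same tumours and are not separate evidence. By limma 1 of the 10 genes was under an unadjusted 0.05, against 13.0% of all genes tested. The exact permutation test was run for each of the 10 genes and was not adjusted over them. The median change of the 10 in Res 499 was -0.000443 with the leukocyte covariate, and 0.0961 to 0.1571 without single tumours. With that covariate signs turned for Ifnar2 (-0.0511, -0.0863 and -0.0548 in Res 499, Res 177 and pooled), Jak1 (-0.0427, -0.0213 and -0.0404), Irf1 (-0.3179, -0.0133 and -0.2859), Socs1 (-0.0083, -0.1074 and -0.0187) and Ifngr1 pooled (-0.0041). In Res 499 they also turned for Ifng (-0.0078), Irf8 (-0.2205), Ptprc (-0.0881), Il10ra (-0.0883) and Igtp (-0.3363). With arrays centred on their median Jak1 was -0.0052, -0.008 and -0.0056, Socs1 in Res 177 was -0.0251 (-0.0197 when quantile-normalized again), and Ifngr2 on the second design was -0.000764. Socs3 was -2.22e-05 with the mean of its probe sets, and r of Ifngr2 was 0.0614 with macrophage markers, against -0.051. Without single tumours Jak1 ran from -0.0089 to 0.0592 in Res 499 and -0.000294 to 0.0581 pooled, and Jak2 from -0.1678 to 0.0418 and -0.1345 to 0.0751. In Res 177 Ifngr1 ran from -0.0772 to 0.0085 and Socs1 from -0.0102 to 0.0552, and Ifne in Res 499 from -0.1148 to 0.0271.

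Genes called numbered 59 in Res 499, 229 at a threshold of 0.10, 356 with array weights and 28 with the leukocyte covariate. The count was 6 to 196 without single tumours: 11, 22 and 6 without control replicates 2, 3 and 4, and 24, 196, 14, 18, 23 and 37 without Res 499 replicates 1, 2, 3, 4, 6 and 7. In Res 177 it was 35, 101 with no filter and 2 with the lowest 50% left out, and 32 to 37 without single tumours. Pooled it was 102, 254 at 0.10, 330 with weights, 41 with the covariate, and 9 to 141 without single tumours. No paired analysis was possible because the labels carry no replicate numbers. The cause of these shifts was not tested.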
